A study of Mus musculus with 7 samples.

Results

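Keratins are the proteins of the intermediate filaments of epithelial cells, and the mouse genes for them were compared between the regenerating and the intact digit. The family was taken as every gene whose symbol is Krt followed by a number and at most 1 small letter, which gave 53 of the 22180 genes measured. Each gene was read from the brightest of its probe sets that list 1 gene symbol, with brightness averaged over all 7 arrays. The groups were uninjured digits of C57Bl/6 mice (n = 4) and blastemas, the cell masses that rebuild an amputated digit tip, harvested from C57Bl/6 mice 2 weeks after amputation (n = 3). The labels describe the samples as independent biological replicates and give no age, sex, transgene or batch, and they do not say how much skin and nail came with either tissue. Whole tissue was measured, so fewer cells of a type and less RNA per cell cannot be told apart in any value below. Krt5, the type II keratin of the basal epidermis, shares its probe set with Krt6a in the annotation and was left out for that reason, and Krt85 was not analysed here.

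A keratin filament is built from pairs of a type I and a type II chain, and each layer or appendage of the skin uses its own pairs. Basal keratinocytes hold Krt5 with Krt14, differentiating cells replace them with Krt1 and Krt10 and later add Krt2, and the thick skin of the pads adds Krt9. Injured epidermis and the nail bed use Krt6a, Krt6b, Krt16 and Krt17, simple and glandular epithelia use Krt8 and Krt18, and the hard keratins fill the cells of hair and nail plate. The genes lie in a type I and a type II cluster.

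Of the 53 keratins, 28 were type I and 25 type II. By role, 29 were keratins of epithelia, 8 of the inner root sheath of the hair and 16 of hair and nail. Levels are log2 values made by RMA, an array method that corrects background, normalizes arrays to each other and summarises probes. Their zero is arbitrary for each probe set, so the level of one gene is not set against that of another. As a proxy for background, 5.51 was used, the level below which 95% of 1088 olfactory receptor genes lay on average. The mean of 42 keratins exceeded it in at least 1 group. The 11 below it were Krt19, Krt20, Krt76, Krt77, Krt222, the inner root sheath keratins Krt26, Krt27, Krt28, Krt71, Krt72 and Krt74, the last a pseudogene in RefSeq. The arrays had medians of 5.53 to 5.58. The arrays numbered 1 stood apart for some members, as given with those members below.

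The stretch of DNA before the start of transcription is shown for the keratins that changed and have an entry in RefSeq's mouse promoter table, with Krt10, the partner of Krt1 and Krt2, beside them. The table (GRCm38.p6) held 35 of the 53 keratins and 3 of the 8 that changed. Each line gives the 100 bases before the start, 5′ to 3′ on the gene's strand, which is the minus strand of chr11:100193247-100193346 for Krt9, chr15:101818170-101818269 for Krt2, chr11:99493121-99493220 for Krt23 and chr11:99389365-99389464 for Krt10. Capitals mark TATAA, the core of the TATA box, where it lies in the last 50 bases.
Krt9: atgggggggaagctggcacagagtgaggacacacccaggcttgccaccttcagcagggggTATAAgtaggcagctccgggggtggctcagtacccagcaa
Krt2: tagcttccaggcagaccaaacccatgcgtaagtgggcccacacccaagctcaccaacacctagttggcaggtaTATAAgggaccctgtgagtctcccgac
Krt23: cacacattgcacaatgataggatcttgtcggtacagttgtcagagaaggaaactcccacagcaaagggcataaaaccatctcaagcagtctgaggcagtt
Krt10: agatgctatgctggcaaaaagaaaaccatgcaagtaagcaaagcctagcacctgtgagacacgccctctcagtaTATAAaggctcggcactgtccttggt
TATAA lay in the last 50 bases, on the gene's strand, of 21 of 35 keratins (60.0%) and of 1591 of the 27025 genes in the table (5.89%). It was searched on both strands of the 250 bases before the start too, where 24 keratins (68.6%) and 25.8% of all genes held it. The AP-1 element TGANTCA, which reads the same on both strands, lay in those 250 bases of 1 keratin, Krt13, and of 7.82% of all genes. The AP-2 element GCCNNNGGC, likewise the same on both strands, lay in 5 keratins (14.3%) and 15.4% of all genes. Keratins with and without a change in the blastema both held TATAA, as Krt9, Krt2 and Krt10 show.

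Most keratins did not differ between blastema and intact digit by the test. Those that did came from several layers and sites, as did those that did not. Krt9, Krt2, Krt4, Krt15, Krt35 and Krt23 fell in the blastema, and the injury keratins Krt6a and Krt6b rose. The falls ran from 1.69-fold (Krt23) to 17.2-fold (Krt9), and the rises were 1.36-fold (Krt6b) and 1.47-fold (Krt6a). Krt1, Krt10, Krt14 and 15 of the 16 hair and nail keratins did not pass the test. The test was limma with Benjamini-Hochberg adjustment over all 22180 genes at an adjusted p of 0.05. It called 8 of 53 keratins (15.1%), against 9.64% of all genes. It called 6 keratins lower (11.3%) against 4.66% of all genes, and 2 higher (3.77%) against 4.98%. The groups did not overlap in 12 keratins (22.6%), a share close to the 21.0% of all genes. In 10 of the 53 the blastema was lower without overlap, a larger share than the 10.6% of all genes. In 2 of the 53 it was higher without overlap, a smaller share than the 10.4% of all genes. The median log2 fold change (blastema mean minus uninjured mean) of the 53 keratins was -0.14, and that of all genes was -0.01. Without uninjured array 2 or blastema array 2, 3 keratins were called lower. Of all genes 505 and 429 were then called lower, in place of 1034. Omitting uninjured array 2, 3 or 4, or blastema array 1 or 2, left 1 keratin called higher, and omitting uninjured array 1 gave 3. Of all genes 682, 625, 658, 1286 and 457 were then called higher, and 914 without uninjured array 1, in place of 1105.

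**Figure D1:**
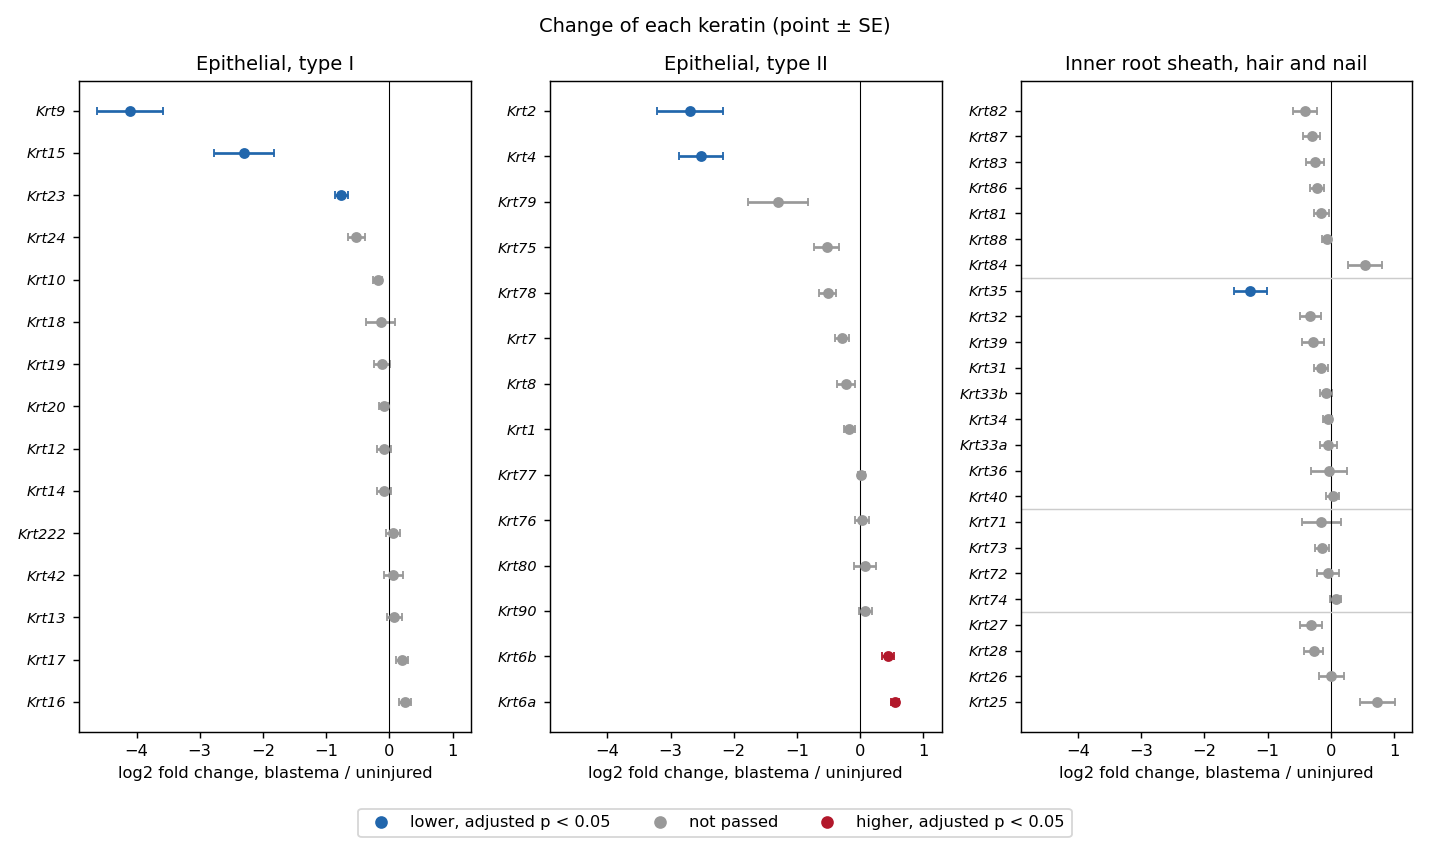
Log2 fold change of each of the 53 keratins, blastema over uninjured digit, as points with the SE of the limma fit, in 3 panels (epithelial type I, epithelial type II, and inner root sheath with hair and nail, split by grey lines into classes). Blue and red points passed an adjusted p of 0.05, and most grey points lie within 0.5 of 0, while Krt9 lies at -4.11.

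The keratin of the pads showed the largest change of the family. Krt9, a type I chain of the thick epidermis of palms and soles, lay at 9.10, 11.05, 11.21 and 11.14 on uninjured arrays 1 to 4. On blastema arrays 1 to 3 it lay at 6.62, 6.83 and 6.11. All blastema levels were below all uninjured levels, and uninjured array 1 was lower than the other uninjured arrays. The uninjured mean was 10.62 ± 1.02 (SD, n = 4) and the blastema mean 6.52 ± 0.37 (SD, n = 3), and the log2 fold change was -4.11 ± 0.52 (SE; 95% interval -5.33 to -2.88; limma adjusted p = 0.00512). The blastema levels stayed above the background proxy. Krt9 passed in each of the 7 omissions of 1 array (adjusted p = 0.00322 to 0.0336, log2 fold change -4.61 to -3.90). Aqp5, the water channel of the sweat glands that lie in the same pads, fell too (-1.11 ± 0.14 SE, adjusted p = 0.00534). The mean of 7 sweat gland markers was 5.91 to 6.24 across intact digits and 5.78 to 5.79 across blastemas. Of the 7 markers 2 fell (28.6%, against 4.66% of all genes) and 0 rose (against 4.98%), and 4 lay above the background proxy. Besides Aqp5, the marker that fell was Scgb1a1 (limma adjusted p = 0.0486), which lost its call in each of the 7 omissions. The part of the sweat glands in the fall of Krt9 was not tested. Krt9 lies in the type I cluster between Krt19 and Krt14, whose changes were -0.11 (adjusted p = 0.627) and -0.08 (adjusted p = 0.679).

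Among keratins of differentiating epidermis, the late Krt2 fell while the main pair Krt1 and Krt10 did not pass. Krt2, a type II chain of the upper spinous and granular layers, lay at 11.72, 12.44, 12.52 and 12.43 on the uninjured arrays and at 8.19, 10.23 and 10.34 on the blastema arrays. The groups did not overlap, and array 1 was the lowest of its group in both. The log2 fold change was -2.69 ± 0.52 (SE), from 12.28 ± 0.38 (SD, n = 4) to 9.59 ± 1.21 (SD, n = 3), with a limma adjusted p of 0.0206. The call of Krt2 was lost when uninjured array 2, 3 or 4 was omitted (adjusted p = 0.0683, 0.0683 and 0.0644) and when blastema array 2 was (0.0508), and its direction was the same in each of the 7 omissions.

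Krt10, the type I partner of Krt1 and Krt2, lay at 12.75, 12.80, 12.95 and 12.91 on the uninjured arrays and at 12.69, 12.69 and 12.62 on the blastema arrays. These levels did not overlap either, but the difference was -0.18 (95% interval -0.35 to -0.02, limma adjusted p = 0.155). Krt1 lay at 12.90 to 13.15 in uninjured digit and at 12.77 to 12.95 in blastema, which overlap, with a difference of -0.17 (95% interval -0.37 to 0.03, limma adjusted p = 0.267). The log2 ratio of Krt1 to Krt10 changed by 0.01 between the groups, and its groups overlapped. That of Krt2 to Krt10 changed by -2.50 and that of Krt1 to Krt9 by 3.93, each without overlap. Both Krt1 and Krt10 were among 11 keratins with group means above 12 in both groups, where 66 genes of all lay, and the highest value of each array was 13.58 or more. The changes of these 11 ran from -0.30 to 0.25, and 0 of them passed. Whether differences are compressed this near the top of the scale was not tested.

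The 8 keratins assigned to differentiating epidermis had a median log2 fold change of -0.35. Of these 1 fell (12.5%, against 4.66% of all genes) and 0 rose. In 5 the groups did not overlap, all with the blastema lower (62.5%, against 10.6% of all genes). The same held for 11 of 19 epithelial markers that are not keratins and for 6 of 16 keratin partner genes. Besides Krt2 and Krt10, the 5 keratins were Krt79 of the hair follicle opening (-1.31 ± 0.47 SE, limma adjusted p = 0.141), Krt24 (-0.52 ± 0.13, adjusted p = 0.0546) and Krt78 (-0.51 ± 0.14, adjusted p = 0.0617). These 3 are named after their values were seen. Krt79 varied widely among the intact digits, at 5.94, 8.11, 6.37 and 7.24, while the blastema arrays lay at 5.51, 5.61 and 5.71, near the background proxy. Krt24 passed when uninjured array 1 was omitted (adjusted p = 0.028). Its levels were 11.93 to 12.39 in uninjured digit and 11.51 to 11.87 in blastema.

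**Figure D2:**
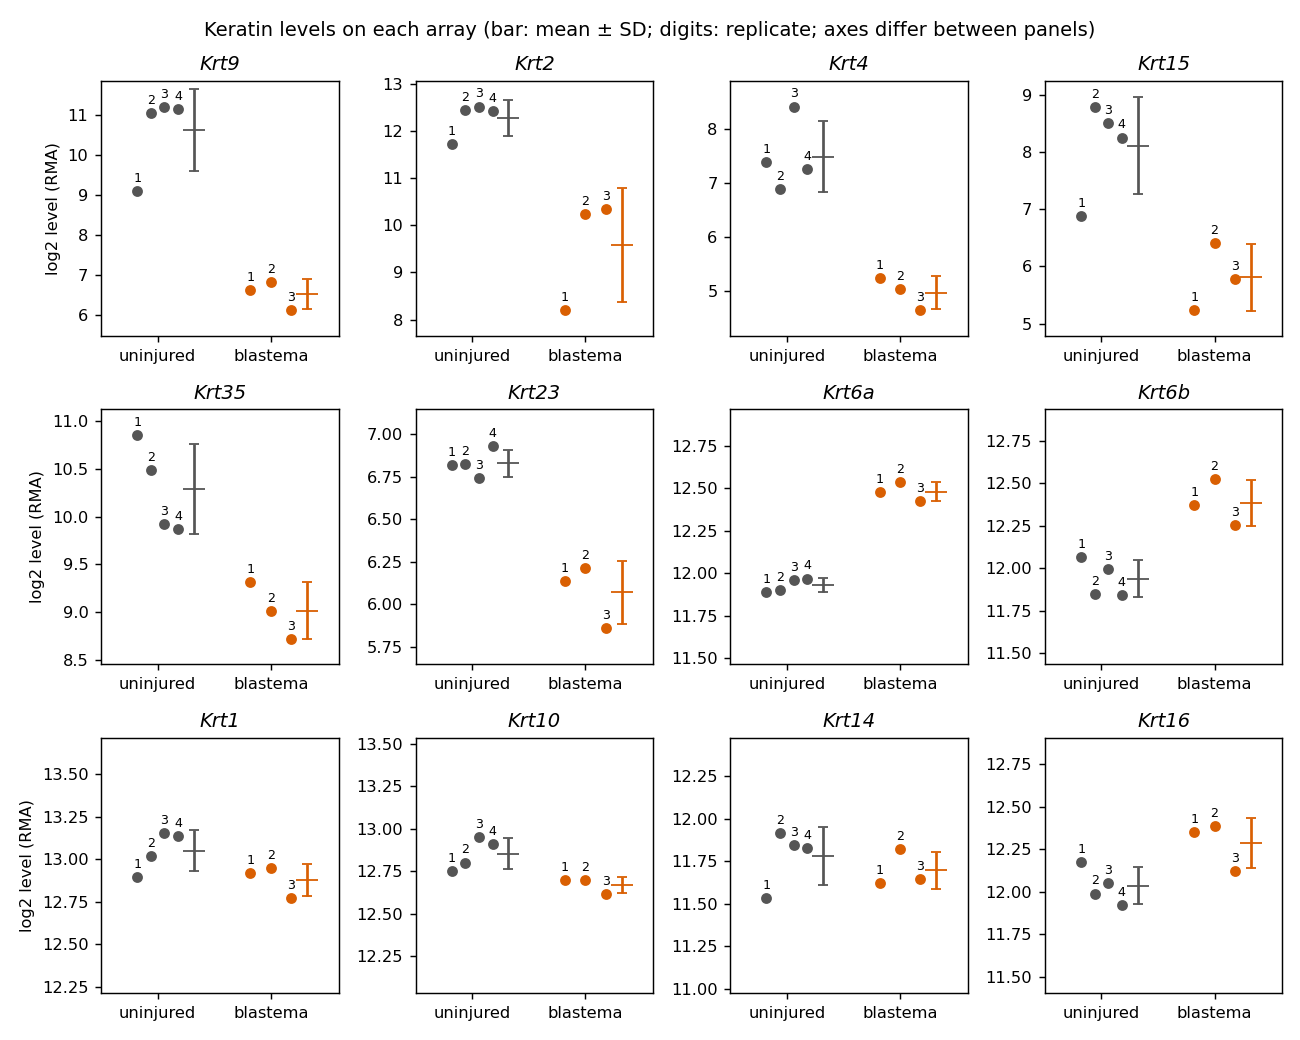
Log2 level of 12 keratins on each array, grey for the 4 uninjured digits and orange for the 3 blastemas, with the replicate number above each point and the mean ± SD at the side (vertical scales differ between panels). The first 8 panels hold the keratins that passed the test, with no overlap between groups, and the last 4 hold Krt1, Krt10, Krt14 and Krt16, which did not pass.

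In the basal layer, Krt15 fell and Krt14 did not pass. Krt15, a type I chain that marks quiescent basal cells and the hair follicle bulge, lay at 6.88, 8.79, 8.51 and 8.25 on the uninjured arrays and at 5.23, 6.40 and 5.79 on the blastema arrays. The groups did not overlap, and array 1 was again the lowest of each group. The log2 fold change was -2.30 ± 0.48 (SE), from 8.11 ± 0.85 (SD, n = 4) to 5.81 ± 0.59 (SD, n = 3), with a limma adjusted p of 0.0265. The call held in 1 of the 7 omissions, that of uninjured array 1 (adjusted p = 0.00841), and was lost in the others: without uninjured array 2, 3 or 4 the adjusted p was 0.0747, 0.083 and 0.0778, and without blastema array 1, 2 or 3 it was 0.075, 0.0588 and 0.105. Krt14, the main type I chain of basal keratinocytes, lay at 11.53, 11.92, 11.84 and 11.83 on the uninjured arrays and at 11.62, 11.82 and 11.64 on the blastema arrays. The blastema levels lay within the uninjured range, and the difference of -0.08 had a 95% interval of -0.33 to 0.17 (limma adjusted p = 0.679). The probe set that lists Krt5 and Krt6a together, which belongs to neither gene here, lay at 10.91, 11.65, 11.61 and 11.54 on the uninjured arrays and at 11.20, 11.21 and 11.01 on the blastema arrays, which overlap.

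The keratins of injured epidermis, nail bed and companion layer were the only one of the 6 site groups with members that rose. Of 6, 2 rose (33.3%, against 4.98% of all genes) and 0 fell (against 4.66%), and their median log2 fold change was 0.22. Krt6a, a type II chain switched on in keratinocytes after wounding, lay at 11.89, 11.90, 11.96 and 11.97 on the uninjured arrays and at 12.48, 12.54 and 12.43 on the blastema arrays. The spread within each group was small (SD 0.04, n = 4, and 0.05, n = 3) against the log2 fold change of 0.55 ± 0.06 (SE; limma adjusted p = 0.00308). Krt6b, its close copy, lay at 12.07, 11.85, 11.997 and 11.84 on the uninjured arrays and at 12.37, 12.52 and 12.25 on the blastema arrays, also without overlap, with a log2 fold change of 0.44 ± 0.09 (SE; adjusted p = 0.0255). The coding sequences of Krt6a and Krt6b are near-identical, so signal may be shared between their probe sets, which was not tested, and their rises may not be independent of each other.

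Krt6a passed in each of the 7 omissions of 1 array (adjusted p = 0.00721 to 0.0205). Krt6b lost its call when uninjured array 2, 3 or 4 was omitted (adjusted p = 0.0728, 0.0615 and 0.0704), when blastema array 1 or 2 was (0.0565 and 0.088) and without both arrays numbered 1 (0.0606). Their type I partners differed by less. Krt16 lay at 11.92 to 12.18 in uninjured digit and at 12.12 to 12.39 in blastema, which overlap. The difference was 0.25 (95% interval 0.03 to 0.47, limma adjusted p = 0.148). Krt17 lay at 10.04 to 10.40 and at 10.35 to 10.40, a difference of 0.20 (95% interval -0.02 to 0.41, adjusted p = 0.24), and passed when uninjured array 1 was omitted (adjusted p = 0.0385). The log2 ratio of Krt6a to Krt16 was higher in blastema by 0.30 without overlap, and that of Krt6b to Krt17 by 0.25 with overlap. Krt75 of the companion layer of the hair follicle pointed the other way, at 6.19 to 6.90 in uninjured digit and 5.85 to 6.45 in blastema (-0.53 ± 0.20 SE, adjusted p = 0.156).

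Of the 4 keratins of mucosa and cornea, Krt4 fell (25%, against 4.66% of all genes) and 0 rose (against 4.98%). Krt4, the type II chain of internal stratified epithelia such as oesophagus and tongue, lay at 7.38, 6.88, 8.41 and 7.26 on the uninjured arrays and at 5.24, 5.03 and 4.63 on the blastema arrays. The groups did not overlap, and each blastema level was below the background proxy of 5.51. The log2 fold change was -2.52 ± 0.35 (SE; limma adjusted p = 0.00669), and it passed in each of the 7 omissions of 1 array (0.00845 to 0.0396). Krt13, its usual type I partner in those epithelia, lay near the proxy on every array, at 5.27 to 5.76 in uninjured digit and at 5.53 to 5.65 in blastema (difference 0.08, adjusted p = 0.724).

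The 6 keratins of simple and glandular epithelia all had negative differences, with a median log2 fold change of -0.18. Of these 1 passed (16.7%, against 9.64% of all genes). Krt23, a type I chain counted among them, lay at 6.82, 6.82, 6.74 and 6.93 on the uninjured arrays and at 6.13, 6.21 and 5.86 on the blastema arrays. The groups did not overlap, and the log2 fold change was -0.76 ± 0.10 (SE; limma adjusted p = 0.00532), which held in each of the 7 omissions (0.0127 to 0.0223). The general pair of simple epithelia overlapped between groups. Krt8 differed by -0.22 (95% interval -0.54 to 0.10, adjusted p = 0.37), and Krt18 by -0.14 (95% interval -0.68 to 0.40, adjusted p = 0.758). Krt18 has a second, dimmer probe set, whose mean was 5.12 in the intact digits and 4.54 in the blastemas, and the brighter one was highest on uninjured array 4 (6.57, against 5.58 to 5.81 on the other uninjured arrays). Without that array the difference of Krt18 was 0.08. Krt7, of ducts and glands, lay at 5.60 to 5.93 and at 5.40 to 5.61 (difference -0.28, adjusted p = 0.169), and Krt19 lay below the proxy in the mean of both groups. Of 5 Merkel cell marker genes 0 passed, and the sweat gland markers that fell were Aqp5 and Scgb1a1 (-0.84 ± 0.21 SE, adjusted p = 0.0486). Scgb1a1, a secretoglobin, lost its call in each of the 7 omissions (adjusted p = 0.0551 to 0.152), and the part of gland content in the fall of Krt23 was not tested.

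The hard keratins of hair and nail were detected throughout and, apart from Krt35, did not pass. All 16 lay above the background proxy, and 1 fell (6.25%, against 4.66% of all genes) and 0 rose (against 4.98%). The median log2 fold change was -0.15, and 14 had a negative difference. Krt35, a type I chain made early in the hair cortex and nail matrix, lay at 10.86, 10.49, 9.93 and 9.87 on the uninjured arrays and at 9.31, 9.01 and 8.72 on the blastema arrays. The groups did not overlap, and the log2 fold change was -1.28 ± 0.26 (SE; limma adjusted p = 0.026), a call that was lost when uninjured array 2 or blastema array 2 or 3 was omitted (0.0809, 0.0969 and 0.112). Its neighbour in the cluster, Krt36, lay at 11.18 to 11.68 in uninjured digit and at 11.99, 11.60 and 10.72 in blastema. Its difference of -0.03 (± 0.29 SE, adjusted p = 0.961) was above 0 without uninjured array 1 (0.01) or 2 (0.04) or blastema array 3 (0.33). Krt84, a type II hard keratin, had the highest positive difference of the class, 0.54 (95% interval -0.10 to 1.18, adjusted p = 0.276), with 12.06, 11.86 and 11.01 on the blastema arrays against 10.64 to 11.28. Krt36 and Krt84 are named after their values were seen. Krt31, a main hair cortex chain, lay at 12.44 to 12.81 and at 12.30 to 12.55 (difference -0.16, adjusted p = 0.441). Several hard keratins are near-identical copies, such as Krt33a with Krt33b and Krt81 with Krt83 and Krt86, and their probe sets may share signal.

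The hard keratins varied together between arrays of the same group. Uninjured array 1 was the highest of the 4 uninjured arrays for 14 of the 16, or 87.5%. It was the highest for 60.4% of all 53 keratins and for 30.8% of all genes. Among the 3 blastema arrays, array 3 was the lowest for 14 of the 16 and array 1 the highest for 15. The shares over the other keratins and over all genes were not counted for the blastema arrays. The mean of the 16 was 10.98, 10.75, 10.59 and 10.65 on uninjured arrays 1 to 4 and 10.75, 10.55 and 10.34 on the blastema arrays. These groups overlapped. The mean of 7 nail marker genes, transcription factors and signalling genes of the nail matrix, was likewise highest on array 1 of each group, at 8.63 and 8.59 against 8.16 to 8.21 and 8.10 to 8.24, and 0 of the 7 passed. Array 1 was highest for the single markers too, except Lgr6 among uninjured and Bambi among blastema arrays. Foxn1, Hoxc13, Lef1 and Dlx3 are also among the transcription factor genes that act on keratin genes, given below. The part of nail content in the hard keratin levels was not tested.

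**Figure D3:**
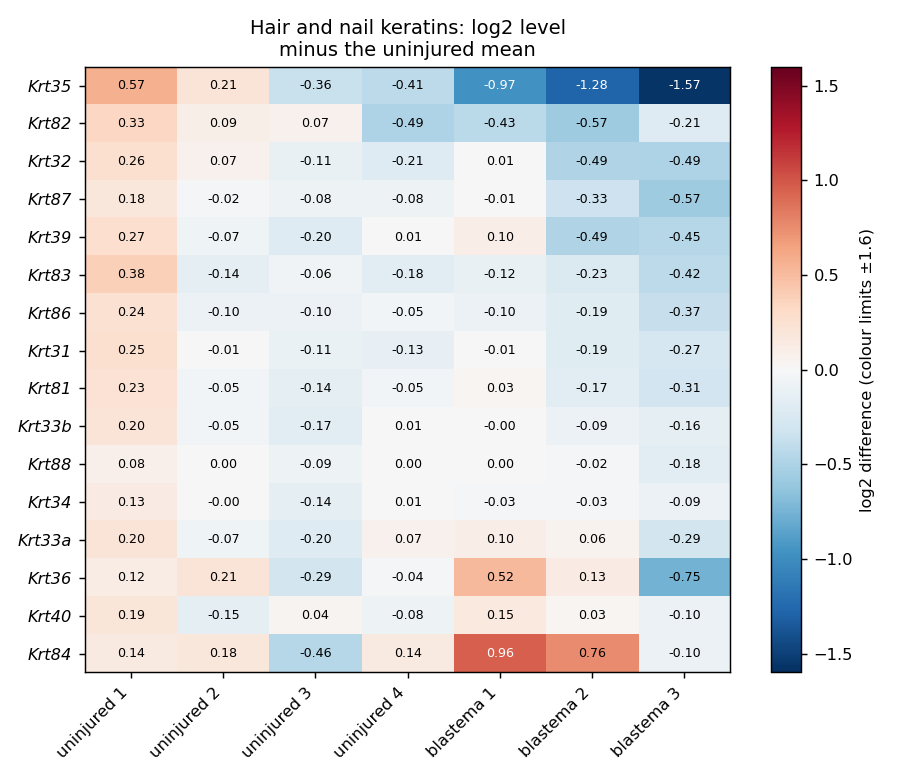
Log2 level of the 16 hair and nail keratins on each array after subtraction of the gene's uninjured mean, with red above and blue below it and the values printed in the cells. The column of uninjured array 1 is positive in every row, Krt35 is low in all 3 blastemas, and Krt84 is high in blastema arrays 1 and 2.

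Of the 8 inner root sheath keratins, which support the growing hair shaft, 6 lay below the background proxy and 0 passed. Krt25 and Krt73 had means above the proxy in both groups, and the class median was -0.09. Krt25, named after its values were seen, had the highest positive difference of the family, from 5.68 to 6.29 in uninjured digit to 6.64, 7.28 and 6.09 in blastema (0.73, 95% interval 0.10 to 1.37, limma adjusted p = 0.149), and its groups overlapped.

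In RefSeq's gene order the type I cluster on chromosome 11 held 27 of the keratins, of which 4 fell (14.8%) and 0 rose. The type II cluster on chromosome 15 held 26, with the type I gene Krt18 at its end. Of these 2 fell (7.69%) and 2 rose (7.69%). Of all genes 4.66% fell and 4.98% rose. Krt4 was followed by Krt79 (-1.31) and Krt78 (-0.51), a run of 3 neighbours whose groups did not overlap, all with the blastema lower, of which Krt4 passed. Krt15 lay between Krt13 (0.08) and Krt19 (-0.11). Krt2 lay next to Krt1 (-0.17), and Krt6a next to Krt6b, the only neighbours that both passed. Type I keratins had a median log2 fold change of -0.09 and type II keratins of -0.15.

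**Figure D4:**
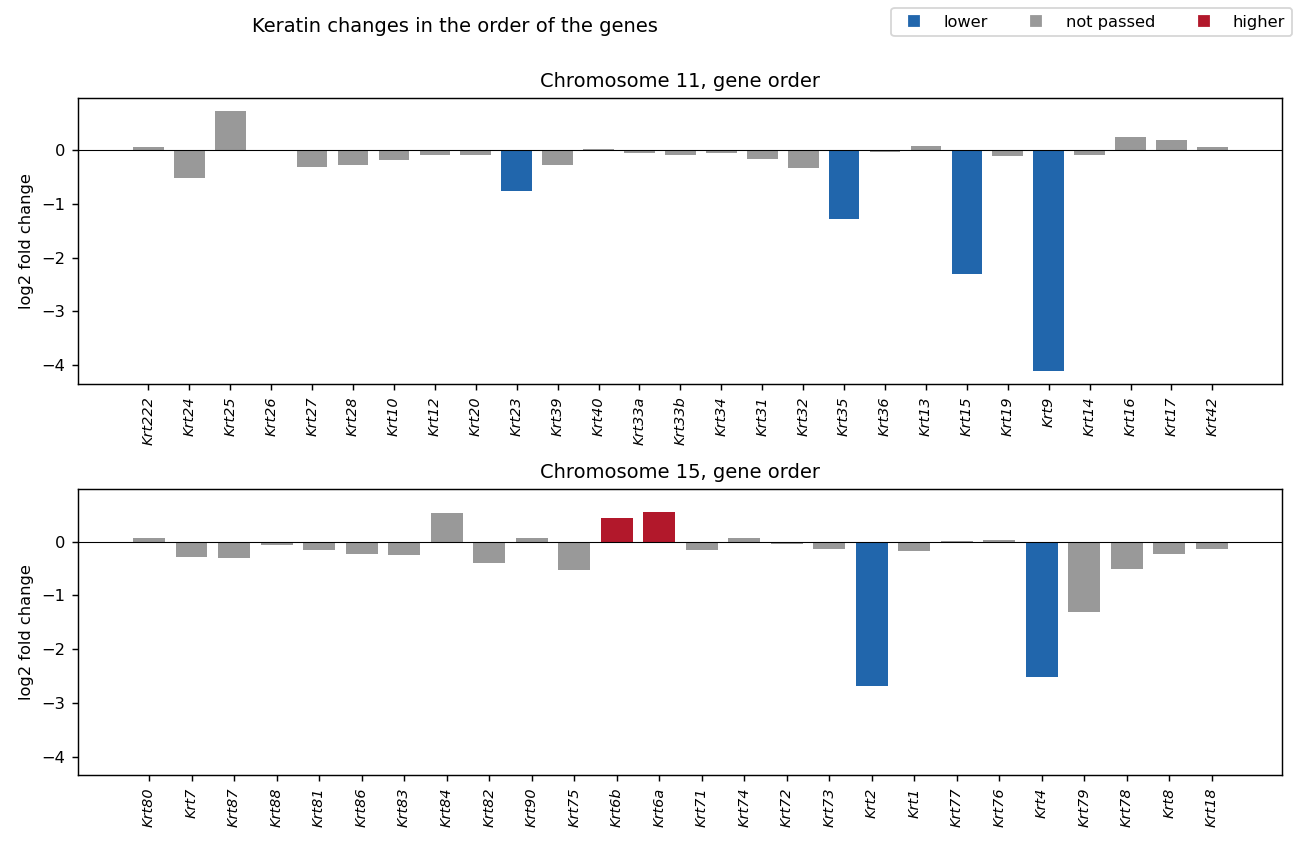
Log2 fold change, blastema over uninjured digit, of the keratins in their order along chromosome 11 (27 genes, upper panel) and chromosome 15 (26 genes, lower panel), with equal spacing between genes. Blue bars fell and red bars rose at an adjusted p of 0.05, the neighbours of Krt9 and Krt15 are grey bars near 0, and Krt79 and Krt78 beside Krt4 are grey bars at -1.31 and -0.51.

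Genes that work with keratins were measured as well. Of 16 measured keratin partner genes, which encode desmosome plaque, plakin and filament-binding proteins, 6 fell (37.5%, against 4.66% of all genes) and 0 rose (against 4.98%), with a median of -0.20. The filaggrin-like Flg2 (-1.49 ± 0.21 SE, limma adjusted p = 0.00739) and Evpl, the cornified envelope protein envoplakin (-0.80 ± 0.11, adjusted p = 0.00712), fell most. Dsp, desmoplakin, which anchors keratin filaments at desmosomes, lay at 12.38 to 12.51 in uninjured digit and 12.44 to 12.49 in blastema and is named after its values were seen. Without blastema array 2 or 3 the partner genes called lower numbered 3. Of all genes 429 and 365 were then called lower, in place of 1034. The 16 measured transcription factor genes that act on keratin genes had a median of -0.16. Of these 1 rose (6.25%, against 4.98% of all genes) and 2 fell (12.5%, against 4.66%). Vdr, the vitamin D receptor, named after its values were seen, rose (0.63 ± 0.08 SE, adjusted p = 0.00452), and Cebpa (-0.92 ± 0.17, adjusted p = 0.0189) and Tfap2c (-0.67 ± 0.15, adjusted p = 0.0318) fell. Omitting uninjured array 3 left 1 regulator called lower, and omitting uninjured array 2 or 4 or blastema array 2 or 3 left 0. Of all genes 520 were called lower without uninjured array 3, and 365 to 586 in those other omissions. With blastema array 3 omitted, the adjusted p of Cebpa was 0.0877 and that of Tfap2c 0.108.

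Epithelial and mesenchymal marker genes moved between the groups as well. Of 19 measured epithelial markers that are not keratins 7 fell (36.8%, against 4.66% of all genes) and 1 rose (5.26%, against 4.98%). Their median was -0.29, 14 had a negative difference, and 18 lay above the background proxy. The 1 that rose was the cadherin gene Cdh3, named after its values were seen (0.69 ± 0.10 SE, limma adjusted p = 0.00672). Sfn, Itgb4 and Itga6 had positive differences that did not pass. Rab25, a trafficking GTPase of epithelia, fell (-0.95 ± 0.10 SE, limma adjusted p = 0.0035), as did the tight junction gene Cldn4 (-0.86 ± 0.13, adjusted p = 0.00798). The mean of the 19 was 9.07 to 9.19 on the uninjured arrays and 8.80 to 8.96 on the blastema arrays, without overlap. Of 10 mesenchyme markers 8 rose (80%, against 4.98% of all genes) and 0 fell (against 4.66%). Their median was 1.98, with array means of 7.54 to 8.49 in uninjured digit and 9.68 to 10.21 in blastema. The collagen I genes Col1a1 (3.48 ± 0.27 SE) and Col1a2 (3.35 ± 0.28 SE) rose most. The part of tissue composition in the keratin values was not tested. With each array scaled to the mean of the 19 epithelial markers, the median of all genes moved to 0.25, and 8937 genes were higher and 475 lower, so that 95% of the calls were upward, in place of 51.7% (1105 higher and 1034 lower). On that scale the 6 keratins that fell still fell. Of the 53 keratins 11 were higher, a smaller share than the 8937 of all 22180 genes. These keratins were Krt6a, Krt6b, Krt13, Krt16, Krt17, Krt25, Krt40, Krt74, Krt77, Krt84 and Krt90. Krt74 and Krt77 lay below the background proxy. The median of the 53 was 0.12, below that of all genes. On the scale as deposited, the epithelial markers called lower numbered 4 with uninjured array 1 omitted, and 3 with any other uninjured array or blastema array 3 omitted. Of all genes 996 were called lower in the first case and 365 to 586 in the others, in place of 1034.

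**Figure D5:**
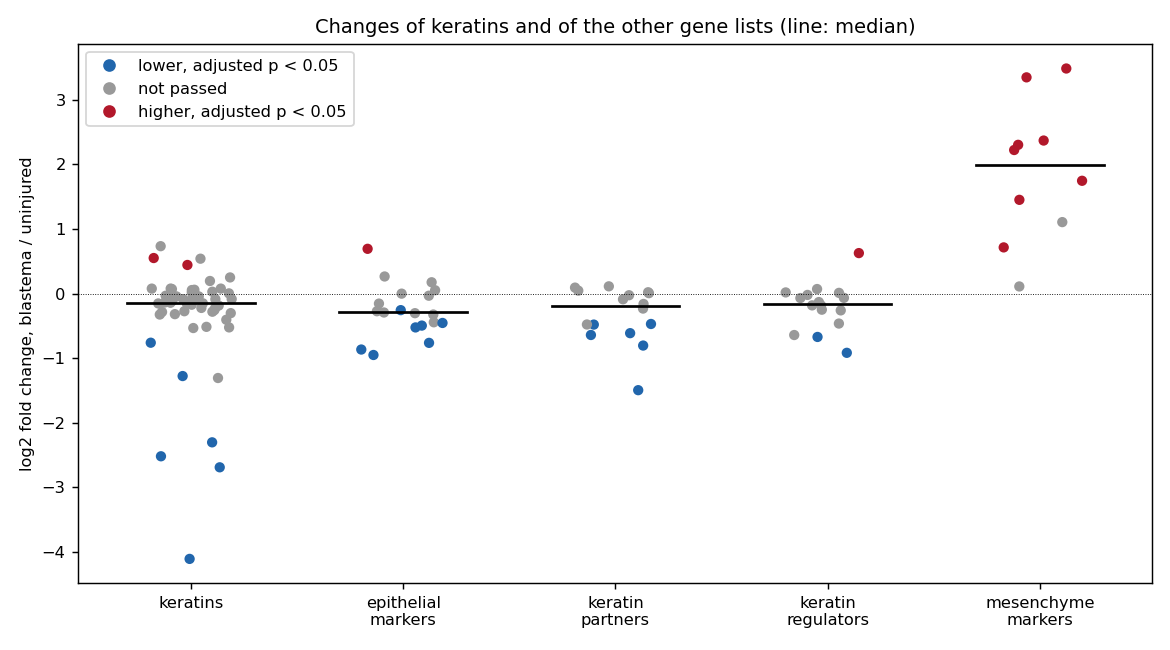
Log2 fold change, blastema over uninjured digit, of the 53 keratins, 19 epithelial markers, 16 keratin partners, 16 keratin regulators and 10 mesenchyme markers, with 1 point a gene, spread sideways at random, and a line at each median. The keratin median is -0.14, that of the epithelial markers -0.29 and that of the mesenchyme markers 1.98. Krt9, Krt2, Krt4, Krt15, Krt79 and Krt35 lie below every epithelial marker, and of these Krt79 did not pass.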

How the data were processed

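The authors' deposited log2 values came from RMA in the R package oligo, per the submitters' processing notes, with versions and settings not given in the sources used here. Total RNA (400 ng) was labelled with biotin for 1-colour arrays, per the labels' protocols. The platform annotation gave 1 symbol for 23521 of 41345 probe sets, or 22180 genes; 1814 probe sets had several symbols and 16010 none. The 53 keratins matched RefSeq by Entrez identifier, all with the same symbol. 15 of them had a value repeated exactly on 2 or more arrays, as did 52.9% of all genes. Blastema was compared with uninjured digit by limma 3.58.1 (R 4.3.3; lmFit, eBayes, no covariate, no filter), two-sided, with Benjamini-Hochberg adjustment over all genes. limma was tested on simulated data.

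The members, gene lists and tests were chosen with earlier results of these data known. The fixed rule for named genes took every called keratin, a set of keratins by name, and the 2 called members of each other list with the largest absolute change. Alternatives were scaling to 6 reference genes, the array median or epithelial markers, the mean of all probe sets, a filter at the 30th percentile, trended robust variances, array weights, a replicate block, genes above the background proxy, and omission of arrays. Figures used Python 3.11.15 and matplotlib 3.10.9.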

Additional observations from a re-analysis of the deposited data

Results flagged for a closer look

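Among the 4 uninjured arrays, 7 of 53 keratins had 1 array far from the other 3, by the gap to the nearest array as a share of the range (Dixon's test), where chance gives about 1 in 20. Array 1 was the low one for Krt9 (9.10, with the next level at 11.05) and Krt2 (11.72, next 12.43), and the high one for Krt86 (13.15, next 12.87) and Krt20 (4.966, next 4.811). Array 3 was low for Krt84 (10.64, next 11.24). Array 4 was low for Krt71 (3.219, next 4.253) and Krt74 (4.399, with the other 3 arrays at 4.631). Krt20, Krt71 and Krt74 lay below the background proxy.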

How the results depend on the processing

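Over the 10 settings other than the omission of 1 array, the 8 called keratins gave 80 values, of which 75 kept direction and call, 5 lost the call and 0 changed direction. Keratins called higher numbered 1 with reference gene scaling, 11 with epithelial scaling, 1 with the replicate block and 1 without both arrays numbered 1, in place of 2. With epithelial scaling 8937 of all genes were higher, in place of 1105. With 1 array omitted, 1 to 3 keratins were higher and 3 to 7 lower. Over all genes 845 to 2295 were then called, in place of 2139. With epithelial scaling 5 epithelial markers were higher and 4 lower, 3 partner genes, 3 regulators and 5 sweat gland, Merkel cell and nail genes were higher, and Krt14 (0.18), Krt1 (0.0879), Krt10 (0.0753), Krt8 (0.0376), Krt18 (0.12), Krt19 (0.15), Krt31 (0.10) and Krt36 (0.23) changed sign. The replicate numbers were not taken as a pairing, since deviations of same-numbered arrays correlated at 0.286, 0.151 and -0.0651. Even so, 2 of 3 blastema arrays were most like the uninjured array of their number. Array 1 was also the lowest of both groups for Krt2 and Krt15, and the highest of both for the mean of the hard keratins. With the number as a replicate block, where uninjured array 4 has no partner, 599 genes were called in place of 2139. Of the keratins 4 were lower and 1 higher, Krt4 (adjusted p = 0.0596), Krt9 (0.052) and Krt6b (0.122) did not pass, and Krt18 changed sign (0.0828). Under the block 0 epithelial markers were higher and 3 lower, 1 partner gene was lower, 0 regulators were higher and 0 lower, and 4 mesenchyme markers were higher. Of the sweat gland, Merkel cell and nail genes 1 was lower under the block, with array weights and without both arrays numbered 1, in place of 2. Reference gene scaling lost Krt6b (0.0734), but the reference set itself moves: 1 of its 6 genes, Rplp0, fell (-0.82, limma adjusted p = 0.00628), the groups did not overlap in 3, and its mean was 9.21 on uninjured array 1 and 9.46 to 9.48 on the others. Krt24 passed in 7 of the 10 settings, such as array weights (0.0147), and Krt78 in 4. With median scaling 43.7% of calls were upward. With 1 array omitted, 3 to 6 epithelial markers, 3 to 7 partner genes, 0 to 3 regulators and 1 of the sweat gland, Merkel cell and nail genes were lower, 6 to 8 mesenchyme markers were higher, Krt18 ran from -0.249 to 0.0828 and Krt36 from -0.311 to 0.329. The cause of these shifts was not tested. Low signal limits the 11 keratins below the background proxy.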
